A study of Mus musculus with 2 samples.

Results

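The genes described here are 10 mouse genes of epithelial adhesion, chosen by name: the claudin genes Cldn3, Cldn4, Cldn6, Cldn7 and Cldn10, the cadherin genes Cdh1 and Cdh2, Epcam, Cd24a, and the connexin gene Gja1. Of these, 9 had a row in both count tables of 25507 genes, and Epcam was not analysed here. Their levels were followed in 1585 cells of wild type mouse pancreas at embryonic day E14.5, which came from 2 libraries of 515 and 1070 cells called library 1 and library 2. The cells had been enriched by flow sorting for low and high Ngn3eGFP, a fluorescent reporter of Neurog3, and captured in inDrop droplets, where every RNA molecule receives a unique molecular identifier (UMI). All cells carry the same genotype and received no treatment, and the labels do not say whether the libraries came from separate embryos. All p-values rest on the variation of group differences across these 2 samples alone, and that variation may be technical.

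Cells were grouped by raw marker UMIs, taken in a fixed order. The groups were Csf1r cells (at least 2 UMIs, 7 and 38 cells in libraries 1 and 2), Cpa1 tip cells (5 UMIs, 9 and 86 cells), insulin-high cells (20 UMIs of Ins1 and Ins2 together, 40 and 99 cells), Gcg cells (5 UMIs, 29 and 56 cells), Neurog3-high cells (5 UMIs, 86 and 135 cells), Chgb-high cells (5 UMIs, 84 and 126 cells) and Spp1 trunk cells (5 UMIs, 97 and 213 cells). A further 6 and 7 cells passed both the Neurog3 and the Chgb threshold, and 157 and 310 cells passed none. Other markers of trunk and Csf1r cells went with these names. The duct and trunk list without Spp1 summed to 3309 and 3907 UMIs per 1000000 UMIs of the group (counts per 1000000, CPM) in trunk cells against 391 to 1639 CPM in the other 6 groups, and the macrophage list without Csf1r reached 7872 and 9059 CPM in Csf1r cells against 77.2 to 255 CPM in the other 6. Sst, the somatostatin gene of delta cells, was at 245 and 2219 CPM in Chgb-high cells and at 16.6 to 127 CPM in the other 6 groups. Ghrl, the ghrelin gene, was at 1536 and 724 CPM in Gcg cells and at 0 to 163 CPM in the other 6. Iapp, from the beta-cell list, was at 585 and 2602.5 CPM in Gcg cells, beside 3448 and 5270 CPM in insulin-high cells. Gcg cells were thus mixed by these markers. Libraries held 1910588 and 3425983 UMIs, and 3 of 1635 barcodes occurred in both.

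Pancreatic ducts, acini and endocrine cells all arise from a polarised embryonic epithelium. Its cells are sealed to each other by tight junctions, whose strands are built of claudins, and are held together by adherens junctions, whose transmembrane proteins are classical cadherins bound to catenins. Cells of the trunk epithelium that switch on Neurog3 leave the epithelial sheet and gather in clusters that become islets. Gap junctions, made of connexins, join the cytoplasm of neighbouring cells.

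The positions below are on GRCm38 as annotated in GENCODE M21. Cldn3 (chr5:134986214-134987472, plus strand) and Cldn4 (chr5:134945119-134946934, minus strand) are genes of 1 exon that lie 39280 bases apart and are transcribed away from each other. The exon of Cldn3 overlaps that of Wbscr25 on the other strand, and since no source used here says if counting was stranded, reads of this pair cannot be told apart. Cldn6 lies at chr17:23679249-23682446, Cldn7 at chr11:69964779-69967885, Cldn10 at chr14:118787908-118875489, Cdh1 at chr8:106603351-106670246, Cd24a at chr10:43578284-43584265 and Gja1 at chr10:56377330-56402513, all on the plus strand.

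Upstream sequences of 4 genes are shown because these genes were among those that differed most, or in opposite directions, between trunk, Neurog3-high and Chgb-high cells. They are RefSeq sequences on GRCm38.p6, from which entries for 6 of the 9 genes were read. Cdh2 was left out of that reading, and Cdh1 and Cd24a had no entry. Each ends next to the transcription start and is written 5′ to 3′ on the strand of the gene, with every E-box of the form CANNTG in capitals. This is the general core bound by basic helix-loop-helix factors, the class that Neurog3 belongs to, and it reads the same on both strands. The Cldn3 stretch (chr5:134985964-134986213, plus strand) is 250 bases long, as are those of Cldn4 (chr5:134946935-134947184, minus strand) and Gja1 (chr10:56377050-56377299, plus strand), while that of Cldn6 (chr17:23679115-23679248, plus strand) stops after 134 bases where the GENCODE gene begins.
Cldn3: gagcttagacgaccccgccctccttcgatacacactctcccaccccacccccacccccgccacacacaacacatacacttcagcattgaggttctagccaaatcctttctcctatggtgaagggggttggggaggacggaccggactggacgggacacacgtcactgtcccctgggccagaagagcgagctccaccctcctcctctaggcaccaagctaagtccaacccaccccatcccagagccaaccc
Cldn4: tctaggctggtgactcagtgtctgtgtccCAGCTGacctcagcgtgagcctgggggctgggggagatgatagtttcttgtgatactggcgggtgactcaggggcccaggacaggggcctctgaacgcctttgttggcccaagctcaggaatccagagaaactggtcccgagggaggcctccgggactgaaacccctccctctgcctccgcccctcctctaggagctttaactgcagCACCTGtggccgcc
Cldn6: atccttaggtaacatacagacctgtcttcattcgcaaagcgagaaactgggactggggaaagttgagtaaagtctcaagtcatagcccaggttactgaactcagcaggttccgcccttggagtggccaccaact
Gja1: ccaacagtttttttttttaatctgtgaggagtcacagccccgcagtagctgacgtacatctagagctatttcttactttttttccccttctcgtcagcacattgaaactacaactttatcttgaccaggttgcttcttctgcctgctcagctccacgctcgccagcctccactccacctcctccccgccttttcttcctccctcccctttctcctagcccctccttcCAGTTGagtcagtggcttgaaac
The Cldn3 stretch had no match, the Cldn4 stretch had 2 (CAGCTG and CACCTG), the Cldn6 stretch had none and the Gja1 stretch had 1 (CAGTTG). The full 250-base window of Cldn6, which runs past the bases shown, held 1 (CAGGTG). Of 32851 promoter windows of 250 upstream bases in the same table, 66.2% held at least 1 such match. A match is a description of these letters only.

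The step from Spp1 trunk cells to Neurog3-high cells showed the most calls among the adhesion genes. Cldn3, Cldn7, Cdh1 and Gja1 fell, Cldn6 rose, and Cldn4, Cldn10, Cdh2 and Cd24a did not pass the test. Thus 1 of 9 genes was higher and 4 were lower by edgeR's quasi-likelihood test at a Benjamini-Hochberg adjusted p of 0.05, while 5.1% of all 10132 genes tested were higher and 3.54% were lower, or 8.65% in either direction. The median log2 fold change was -0.69 over the 9 genes and 0.01 over all genes tested.

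Among the sealing claudins, Cldn3 stood at 320 and 325 CPM in trunk cells and at 111 and 61.5 CPM in Neurog3-high cells of libraries 1 and 2. Both Neurog3-high values lay far below both trunk values. The edgeR log2 fold change was -1.92 ± 0.28 (SE, 2 libraries, adjusted p = 1.70e-07), with -1.52 and -2.38 in the single libraries. Cldn7, whose protein is a known binding partner of EpCAM, had 199 and 206 CPM in trunk cells and 98.1 and 86.1 CPM in Neurog3-high cells. Its edgeR log2 fold change was -1.09 ± 0.28 (SE, adjusted p = 0.00442), again with no overlap between the groups. DESeq2 did not call Cldn7 (adjusted p = 0.0974).

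Cdh1, which encodes E-cadherin, was at 449 and 568 CPM in trunk cells and at 253 and 212 CPM in Neurog3-high cells. The edgeR log2 fold change of Cdh1 was -1.09 ± 0.19 (SE, adjusted p = 1.72e-05), so the Neurog3-high level was lower in both libraries but far from absent. Gja1, which encodes connexin 43, was at 68.1 and 153 CPM in trunk cells and at 18.98 and 17.2 CPM in Neurog3-high cells, from 6 and 7 UMIs in all. The trunk level of Gja1 differed more than 2-fold between the libraries, while the Neurog3-high levels were close. Its edgeR log2 fold change was -2.55 ± 0.48 (SE, adjusted p = 5.61e-05), and DESeq2 did not call it (adjusted p = 0.0614).

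Cldn6, a claudin best known from embryonic epithelia, moved the other way. It was at 633 and 583 CPM in trunk cells and at 788 and 950 CPM in Neurog3-high cells, a small gain without overlap between the groups (edgeR log2 fold change 0.57 ± 0.16 SE, adjusted p = 0.0114). This call was lost when cycling cells were left out (0.37, edgeR adjusted p = 0.197) and by DESeq2 (adjusted p = 0.304). Cycling cells made up 23 of 97 and 70 of 213 trunk cells but 12 of 86 and 10 of 135 Neurog3-high cells, and the summed level of 7 cycle genes was 815 and 1016 CPM against 367 and 241 CPM. Without cycling cells the calls of Cldn3 (log2 fold change -2.04), Cldn7 (-1.17), Cdh1 (-1.25) and Gja1 (-3.31) were as large or larger.

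Cldn4, the second sealing claudin of the chromosome 5 pair, was at 68.1 and 46.4 CPM in trunk cells and 94.9 and 113 CPM in Neurog3-high cells. The groups did not overlap, but the difference did not pass (edgeR log2 fold change 0.96 ± 0.33 SE, adjusted p = 0.0588). It passed when cells beyond 2 marker thresholds were left out (1.23, edgeR adjusted p = 0.0156); these were 18 of 86 and 28 of 135 Neurog3-high cells. Cd24a, which encodes a small sialoglycoprotein anchored in the membrane by lipid, had 509 and 433 CPM in trunk cells and 452 and 537 CPM in Neurog3-high cells. These values overlapped, and the 95% interval of its log2 fold change ran from -0.24 to 0.52. Cdh2, which encodes N-cadherin, was low in both groups (47.9 and 43.3 CPM, then 44.3 and 51.7 CPM), with an interval from -0.66 to 0.94. These levels lay between the 52.8 and 16.6 CPM of Csf1r cells in libraries 1 and 2.

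**Figure D1:**
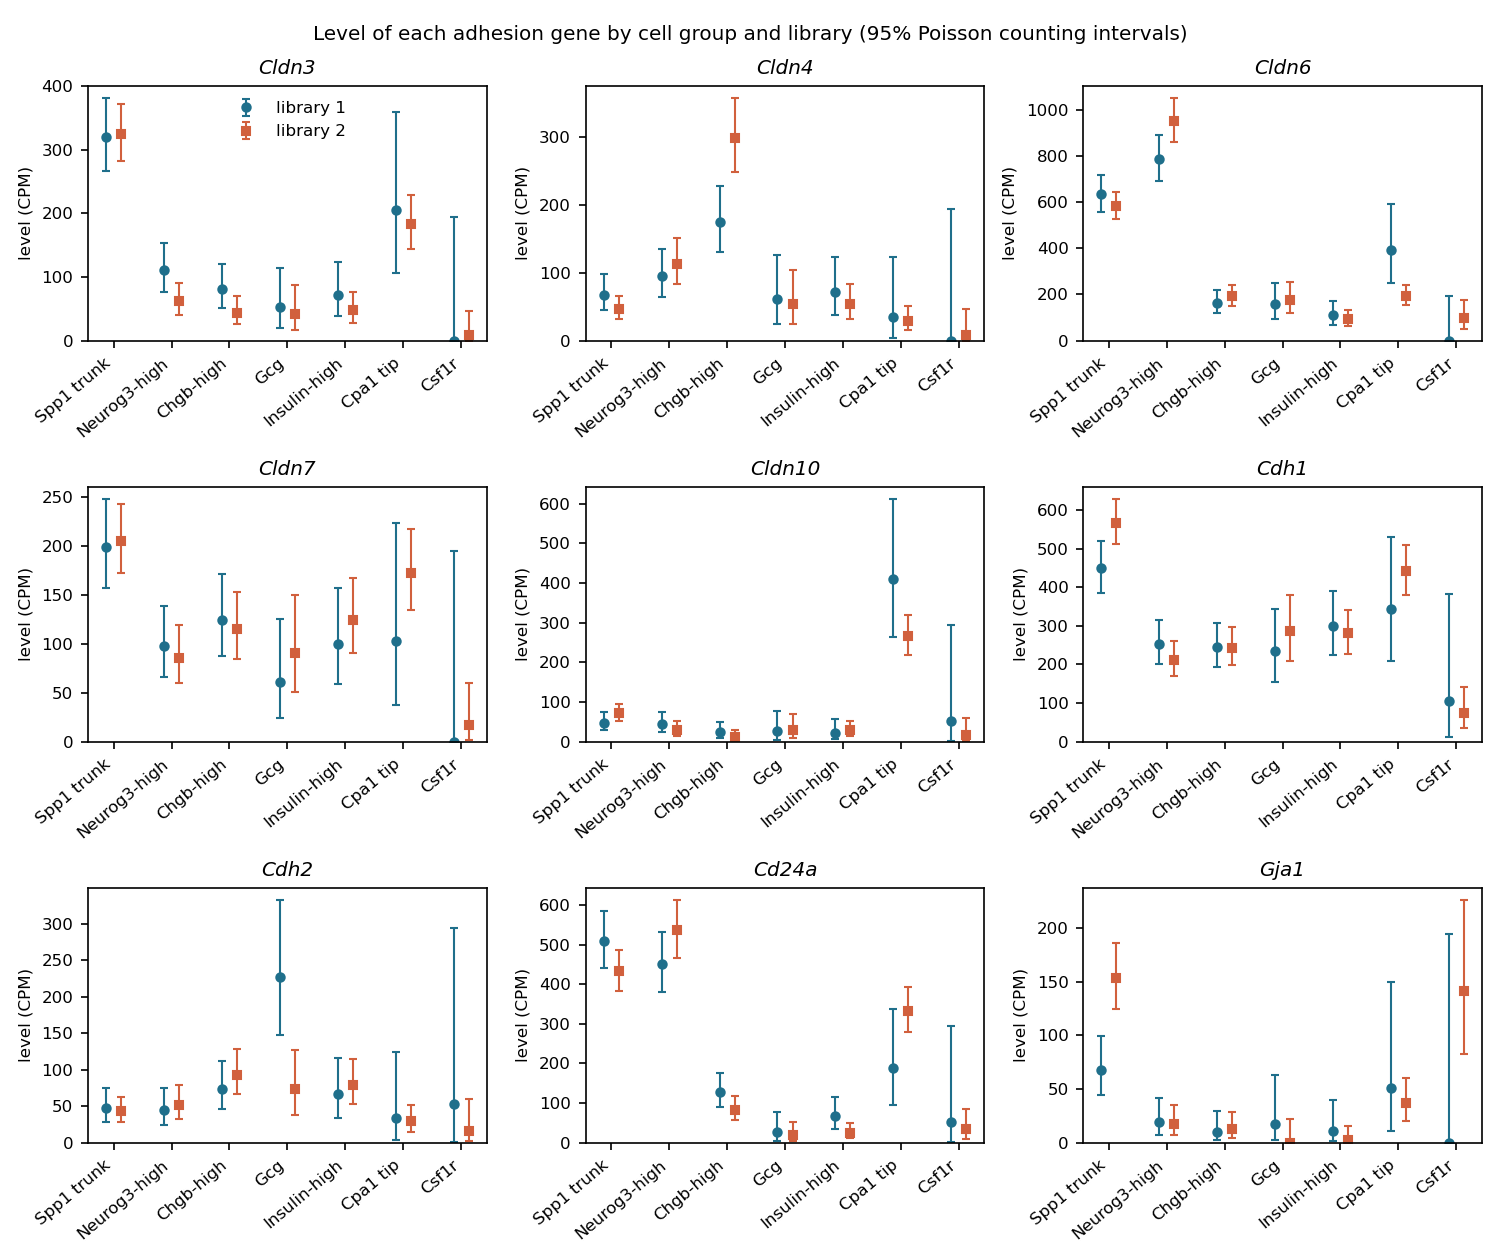
Level of each of the 9 adhesion genes in CPM (vertical axes, each from 0) by marker group (horizontal axis) in library 1 (circles) and library 2 (squares), with bars for 95% Poisson counting intervals. Of the 7 groups drawn, Cldn3 was highest in trunk cells (320 and 325 CPM), Cldn4 in Chgb-high cells (175 and 300 CPM), Cldn6 in Neurog3-high cells (788 and 950 CPM) and Cldn10 in Cpa1 tip cells (411 CPM from 9 cells and 265 CPM from 86).

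Low Neurog3 counts within the trunk were set apart to ask whether adhesion genes differ before a cell passes the Neurog3 threshold. Trunk cells with 1 to 4 Neurog3 UMIs (29 and 72 cells) were compared with trunk cells at 0 (68 and 141 cells). Neurog3 itself was at 121 and 220 CPM in all trunk cells, and at 158.5 and 58.2 CPM in Csf1r cells, from 3 and 7 UMIs. In library 1 the trunk level was thus no higher than in Csf1r cells. Whether the split separates cells that express Neurog3 from those with stray molecules was not tested. By edgeR 0 of 9 adhesion genes passed, 0 had an unadjusted p under 0.05 and DESeq2 also called 0, and of 9813 genes tested 0.051% were called (0.0408% higher and 0.0102% lower). Cldn3 stood at 311 and 298 CPM without Neurog3 UMIs and at 344 and 372 CPM with 1 to 4, and the 95% interval of its log2 fold change was -0.25 to 0.78. For Cdh1 the interval was -0.30 to 0.49, and for Gja1 it was -0.89 to 0.77. These 3 intervals hold no fall as large as those of the same genes between trunk and Neurog3-high cells. That of Cldn7 does, from -1.21 to -0.004. Cldn7 was lower with 1 to 4 Neurog3 UMIs in both libraries (172 and 137 CPM against 210 and 245 CPM) without passing (edgeR adjusted p = 0.919). Its interval ends below 0 though the unadjusted edgeR p was 0.0536, because these normal intervals are slightly narrower than the F test implies.

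Across finer bins of Neurog3 UMIs, given as a description without a test, the drop of Cldn3 lay between 1 to 4 UMIs (344 and 372 CPM) and 5 to 9 UMIs (122 and 78.0 CPM). At 20 or more Neurog3 UMIs it was at 39.8 and 25.4 CPM. Cldn6 went the opposite way, from 651 and 536 CPM at 0 UMIs to 897 and 1192 CPM at 20 or more. Cdh1 dropped between the same bins as Cldn3, from 434 and 611 CPM to 267 and 212 CPM, and Gja1 from 81.4 and 132 CPM to 22.9 and 22.3 CPM. Cldn4 peaked at 5 to 9 UMIs, with 145 and 162 CPM against 54.2 and 34.2 CPM one bin lower and 51.8 and 67.6 CPM one bin higher. The bins from 5 UMIs up hold cells whatever their Spp1 count, whereas the bins below hold only cells with at least 5 Spp1 UMIs.

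**Figure D2:**
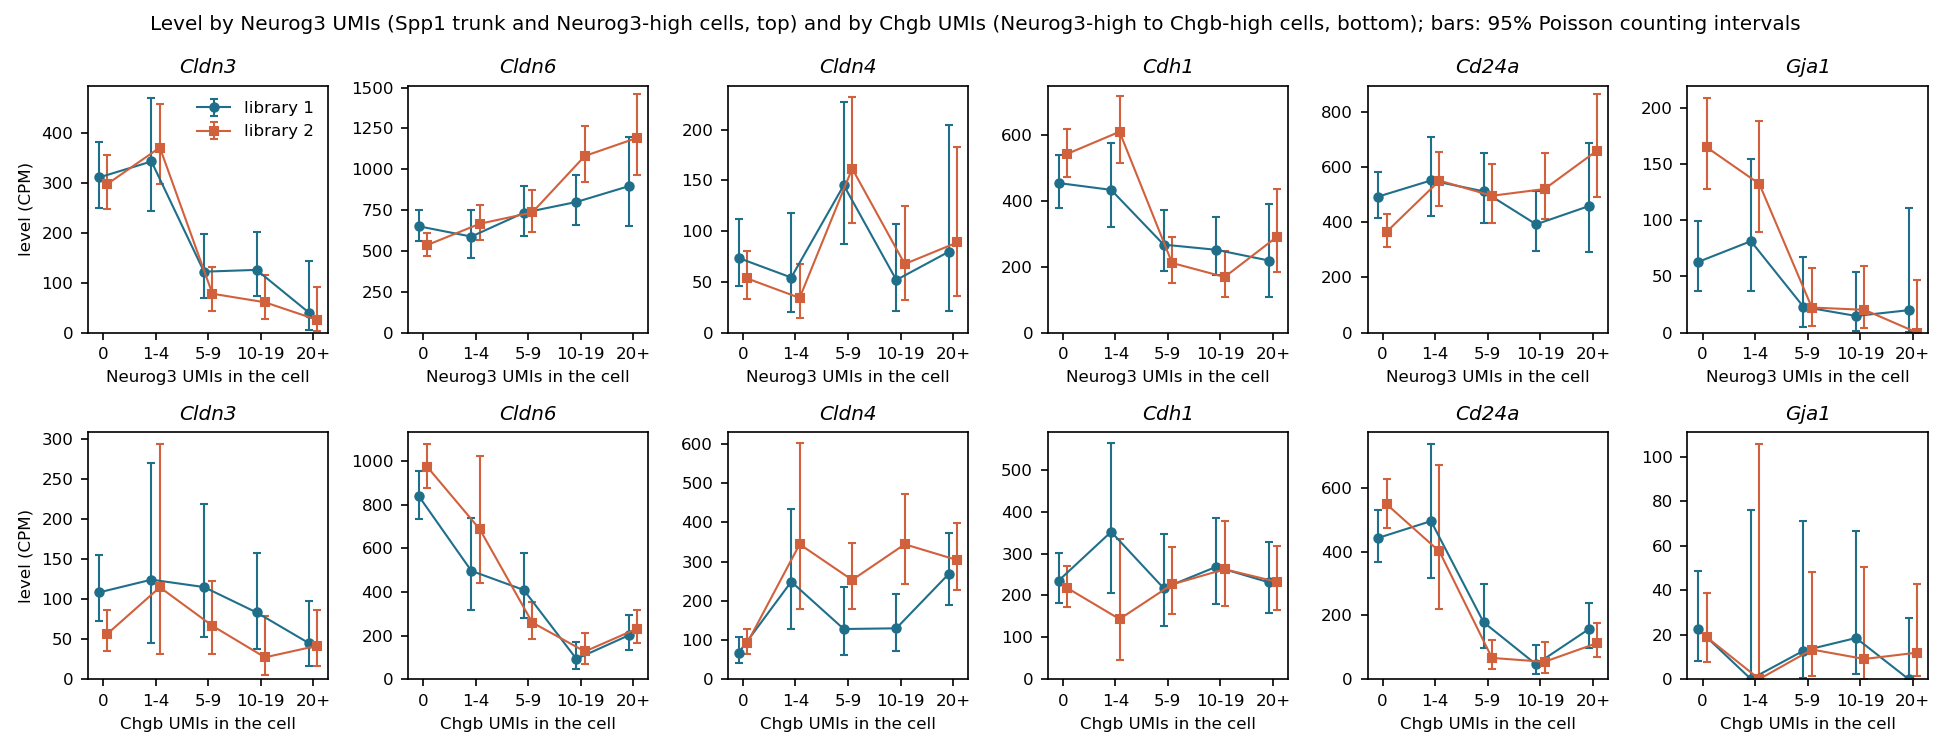
Level in CPM (vertical axes, from 0) of 6 adhesion genes against the Neurog3 UMIs of the cell (top row, Spp1 trunk and Neurog3-high cells) and the Chgb UMIs of the cell (bottom row, cells from Neurog3-high to Chgb-high), for library 1 (circles) and library 2 (squares) with 95% Poisson counting intervals. Cldn3 was at 344 and 372 CPM at 1 to 4 Neurog3 UMIs and at 122 and 78.0 CPM at 5 to 9, and Cd24a was at 497 and 402 CPM at 1 to 4 Chgb UMIs and at 179 and 66.6 CPM at 5 to 9. Below 5 Chgb UMIs all cells are Neurog3-high cells (10 and 11 cells at 1 to 4), and from 5 up most are Chgb-high cells.

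Chgb-high cells, which express the granule protein chromogranin B, were compared with Neurog3-high cells to ask what differs after Neurog3 has declined. Cldn6 and Cd24a fell strongly, and Cldn4 rose. This was 1 of 9 genes higher and 2 lower by edgeR, against 10.9% of all genes called (4.3% higher and 6.61% lower). The median log2 fold change was -0.56 over the 9 genes and -0.00 over all genes tested.

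Cldn6 went from 788 and 950 CPM in Neurog3-high cells to 164 and 192 CPM in Chgb-high cells. Both libraries showed nearly the same fall, -2.25 and -2.30 on the log2 scale, and the edgeR value was -2.37 ± 0.19 (SE, adjusted p = 2.27e-17). Cd24a went from 452 and 537 CPM to 128 and 83.5 CPM (edgeR log2 fold change -2.36 ± 0.24 SE, adjusted p = 1.27e-12). Both genes kept these calls under every alternative run with a test, DESeq2 included. By Chgb UMIs, Cd24a was still at 497 and 402 CPM in cells with 1 to 4 and was at 46.3 and 54.3 CPM in cells with 10 to 19, while Cldn6 went from 840 and 974.6 CPM at 0 Chgb UMIs through 497 and 688 CPM at 1 to 4 to 92.5 and 127 CPM at 10 to 19. At 20 or more Chgb UMIs both genes were higher again, Cd24a at 157 and 113 CPM and Cldn6 at 201 and 232 CPM.

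Cldn4 was at 94.9 and 113 CPM in Neurog3-high cells and at 175 and 300 CPM in Chgb-high cells, its highest level in any group with at least 10 cells per library. The edgeR log2 fold change was 1.10 ± 0.29 (SE, adjusted p = 0.00552), with 0.87 and 1.40 in the single libraries. The call was lost by DESeq2 (adjusted p = 0.165) and when cells beyond 2 thresholds were left out (0.79, edgeR adjusted p = 0.124). By Chgb UMIs, the level was 67.2 and 91.5 CPM at 0 and 248 and 344 CPM at 1 to 4, from 12 UMIs in each library. Both of these bins hold only Neurog3-high cells. It was 128 and 253 CPM at 5 to 9 and 130 and 344 CPM at 10 to 19. At 20 or more it was 269 and 304 CPM, so neither library showed a steady rise. Whether the Sst RNA of the Chgb-high group, which also differed between the libraries, has a part in this level was not tested.

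No change of the E-cadherin gene passed at this step. Cdh1 was at 245 and 243 CPM in Chgb-high cells, between the 253 and 212 CPM of the 2 Neurog3-high libraries. The 95% interval of its log2 fold change was -0.43 to 0.40. Cldn3 was at 80.6 and 44.2 CPM (edgeR log2 fold change -0.56 ± 0.35 SE, adjusted p = 0.381), which overlapped with its Neurog3-high values. Cdh2 was at 73.8 and 93.4 CPM, above both Neurog3-high values, but without passing the test (0.71 ± 0.39 SE, edgeR adjusted p = 0.304). Cldn7 (124 and 115 CPM), Cldn10 (23.5 and 12.3 CPM) and Gja1 (10.1 and 12.3 CPM, from 3 and 5 UMIs) did not pass either.

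**Figure D3:**
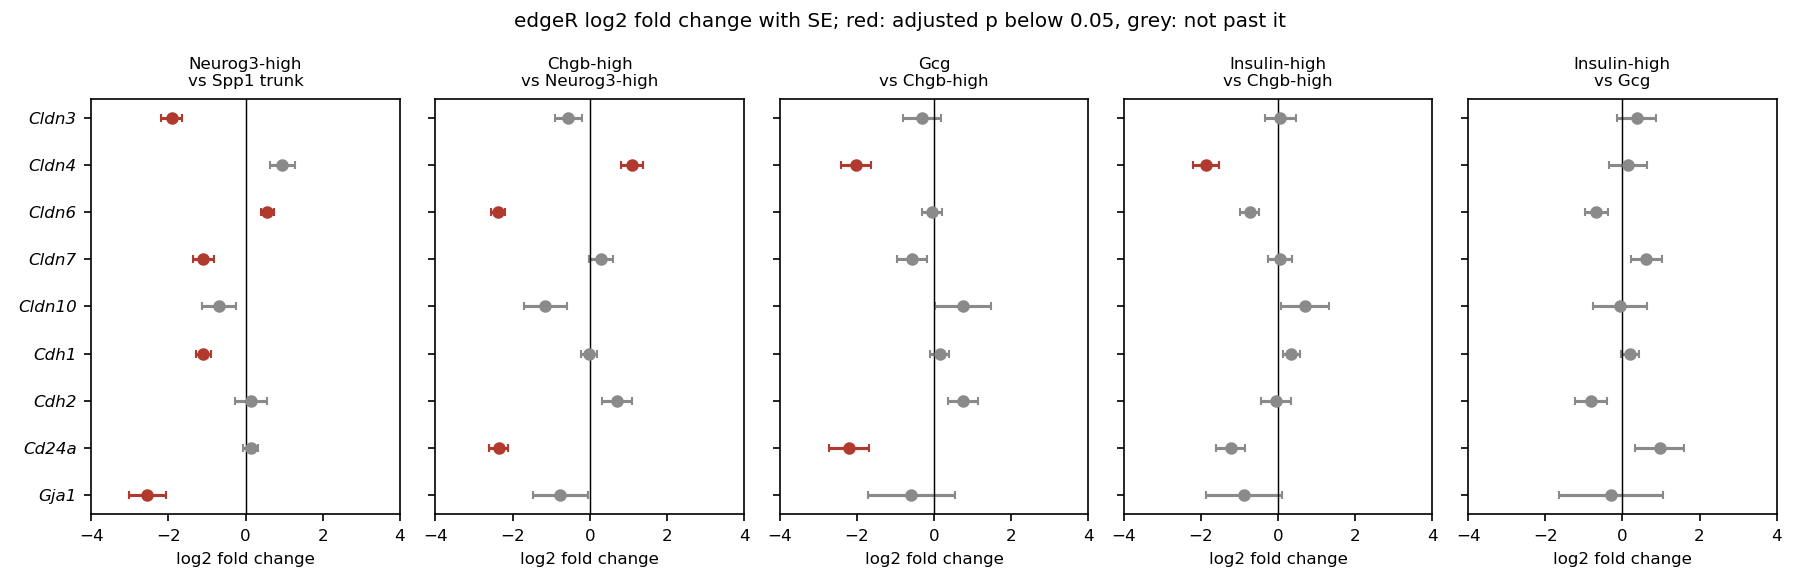
The edgeR log2 fold change of the 9 adhesion genes (horizontal axes) in 5 comparisons between marker groups, with bars for the SE over 10 sums of 2 libraries; red points passed an adjusted p of 0.05 and grey points did not. Cldn3 (-1.92) and Gja1 (-2.55) lie furthest left in the first panel, Cldn6 (-2.37) and Cd24a (-2.36) in the second, and Cldn4 lies right of 0 in the second (1.10) and left of 0 in the third (-2.02) and the fourth (-1.87).

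Hormone-expressing cells were each compared with Chgb-high cells. Cldn4 fell in both kinds, and Cd24a fell in Gcg cells. Gcg cells had 2 of 9 adhesion genes lower and 0 higher by edgeR, against 1.41% of all genes called (0.691% higher and 0.72% lower). Insulin-high cells had 1 of 9 lower and 0 higher, against 2.85% called (1.94% higher and 0.908% lower). The median log2 fold change of the 9 genes was -0.31 for Gcg cells and -0.07 for insulin-high cells, where all genes had a median of -0.01 in each. An unadjusted p under 0.05 was reached by 2 and 3 of the 9, and DESeq2 called 1 in each, Cldn4. Both comparisons use the same Chgb-high sums, so they are not independent of each other. Of the insulin-high cells, 24 of 40 and 54 of 99 passed at least 2 marker thresholds, as did 5 of 29 and 8 of 56 Gcg cells. Chgb was at 1843 and 2129 CPM in insulin-high cells, against 5521 and 5858 CPM in Chgb-high cells.

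Cldn4 was at 61.1 and 54.7 CPM in Gcg cells (edgeR log2 fold change -2.02 ± 0.40 SE, adjusted p = 6.97e-04) and at 71.9 and 53.8 CPM in insulin-high cells (-1.87 ± 0.34 SE, edgeR adjusted p = 6.81e-05). These 4 values all lay below both Chgb-high values. Cd24a was at 26.2 and 18.2 CPM in Gcg cells, from 3 UMIs in each library, and the fall passed (edgeR log2 fold change -2.19 ± 0.52 SE, adjusted p = 0.00957). DESeq2 (adjusted p = 0.0774) and lower marker thresholds (edgeR adjusted p = 0.0974) ended this call. In insulin-high cells Cd24a was at 66.4 and 25.5 CPM, below both Chgb-high values (-1.23 ± 0.37 SE), with an edgeR adjusted p of 0.0509.

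In the hormone-expressing groups Cdh1 did not pass the test, at 236 and 286 CPM in Gcg cells and 299 and 280 CPM in insulin-high cells. Against Chgb-high cells the 95% intervals of its log2 fold change were -0.33 to 0.62 and -0.08 to 0.77. Cldn6 was at 157 and 176 CPM in Gcg cells and at 111 and 93.4 CPM in insulin-high cells, the latter below both Chgb-high values without passing (-0.74 ± 0.25 SE, edgeR adjusted p = 0.113). Cldn3, Cldn7, Cldn10 and Gja1 did not pass in either comparison. Gja1 was near its detection limit, with 2 UMIs in Gcg cells of library 1, 0 of 164460 UMIs in those of library 2 (which allows up to 18.2 CPM) and 2 and 1 UMIs in insulin-high cells.

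Cdh2 differed between the libraries in Gcg cells. It stood at 227 CPM in library 1, from 26 UMIs in 12 of 29 cells with at most 6 in a cell, and at 73.0 CPM in library 2, from 12 UMIs in 10 of 56 cells. The library 1 value was above every other Cdh2 value. The library 2 value lay beside those of Chgb-high cells (73.8 and 93.4 CPM) and insulin-high cells (66.4 and 79.3 CPM). The comparison with Chgb-high cells did not pass (edgeR log2 fold change 0.75 ± 0.40 SE, adjusted p = 0.536), with single-library folds of 1.61 and -0.35. Ghrl and Iapp also differed between the libraries in Gcg cells, and their part in the Cdh2 difference was not tested.

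Insulin-high and Gcg cells were also compared directly. By edgeR 0 of 9 adhesion genes passed, 1 (Cldn6, -0.68 ± 0.30 SE) had an unadjusted p under 0.05 and DESeq2 called 0, where 3.11% of all genes were called (1.96% higher and 1.14% lower). The interval for Cldn4, -0.83 to 1.12 on the log2 scale, includes a level 2-fold higher in insulin-high cells but not one 2-fold lower. The median log2 fold change was 0.14 over the 9 genes and 0.02 over all genes.

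From trunk through Neurog3-high to Chgb-high cells, the levels of the neighbouring claudin genes Cldn3 and Cldn4 moved in opposite directions in each library. At neither step did both genes pass the test. As a description chosen after their values were seen, the share of Cldn4 among the UMIs of both genes was 17.5% and 12.5% in trunk cells, 46.2% and 64.8% in Neurog3-high cells and 68.4% and 87.1% in Chgb-high cells. The share rose at each step in both libraries. It was 53.8% and 56.3% in Gcg cells and 52.8% in insulin-high cells of library 2 (13 of 26 UMIs in library 1), with wide exact intervals such as 25.1% to 80.8% in Gcg cells of library 1, where it rests on 13 UMIs. In Cpa1 tip cells the share was 14.3% and 13.8%, close to trunk cells. For the cadherins, the share of Cdh2 among Cdh1 and Cdh2 UMIs was 9.64% and 7.09% in trunk cells, 14.9% and 19.6% in Neurog3-high cells and 23.2% and 27.7% in Chgb-high cells. In library 1 the exact intervals of trunk (5.91% to 14.7%) and Neurog3-high cells (8.39% to 23.7%) overlapped. Cdh2 itself passed the test at neither step, while Cdh1 fell at the first. The Cdh2 share reached 49.1% and 20.3% in Gcg cells, with the library difference given above, and was 18.2% and 22.0% in insulin-high cells. A share is followed here from group to group and is not a ratio of molecules, since capture differs between genes.

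**Figure D4:**
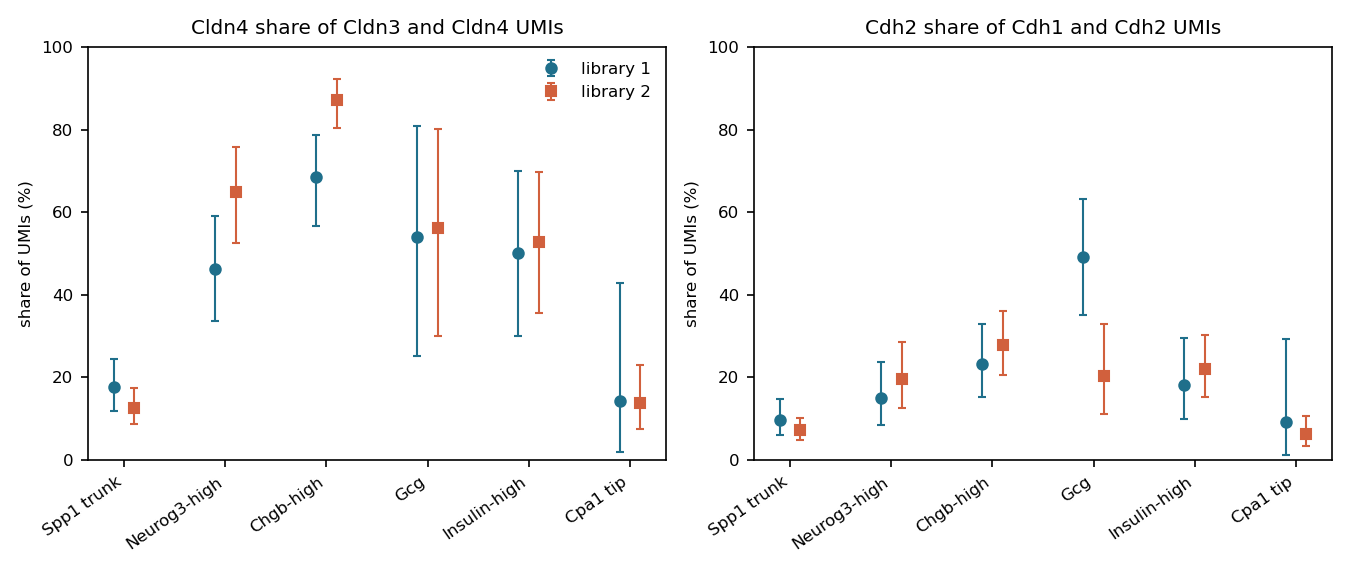
Share of Cldn4 among Cldn3 and Cldn4 UMIs (left) and of Cdh2 among Cdh1 and Cdh2 UMIs (right), in percent from 0 to 100, by marker group in library 1 (circles) and library 2 (squares) with exact binomial 95% intervals that cover counting error only. The Cldn4 share was 17.5% and 12.5% in trunk cells and 68.4% and 87.1% in Chgb-high cells, and the Cdh2 share of Gcg cells was 49.1% in library 1 and 20.3% in library 2.

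Cpa1 tip cells, the acinar side of the epithelium, were too few in library 1 (9 cells) for the planned comparison and are described. Cldn10, which encodes a claudin whose isoforms form ion pores, was at 411 and 265 CPM there, against 47.9 and 71.1 CPM in trunk cells and 12.3 to 44.3 CPM in the groups from Neurog3-high to insulin-high. In library 1 the level rests on 24 UMIs, of which 14 came from 1 cell. Cldn10 was detected in 77.8% and 52.3% of tip cells and in 16.5% and 19.2% of trunk cells. Tip cells were deeper, with medians of 6209 and 4386.5 UMIs against 3870 and 2807. With each cell thinned to 1500 UMIs, the shares were 33.3% and 35.4% against 10.6% and 13.2%. Of the tip cells 7 of 9 and 60 of 86 were cycling, against 23 of 97 and 70 of 213 trunk cells. The part of cycling in this difference was not tested. An alternative added after the data were seen, which admitted groups of at least 5 cells, gave an edgeR log2 fold change of 2.46 ± 0.40 (SE, adjusted p = 9.99e-08) for Cldn10 against trunk cells. In the same fit Cldn6 was lower in tip cells (-1.16 ± 0.31 SE, edgeR adjusted p = 0.00519), at 394 and 195 CPM, and none of the other 7 adhesion genes passed. Cdh1 was at 343 and 441 CPM and Cldn3 at 206 and 183 CPM in tip cells, between the trunk and the Neurog3-high levels.

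Csf1r cells, with a macrophage profile, gave the background for epithelial genes. Of those in library 2, 3 of 38 also passed another marker threshold. Gcg, Ins1 and Ins2 were at 324, 274 and 332 CPM in Csf1r cells there. The part of mixed droplets in this background was not tested. In library 2, 1 of 38 cells (2.63%) had a Cldn3 UMI, 1 a Cldn4 UMI and 2 (5.26%) a Cldn7 UMI, at a median of 2990 UMIs per cell. Library 1 had 0 of 18927 UMIs for each of these 3 genes, which allows up to 158 CPM and is therefore a weak limit. Cdh1 was found in 2 of 7 and 9 of 38 Csf1r cells, always as a single UMI, at 106 and 74.8 CPM, and Cldn6 in 7 of 38 cells of library 2, at 99.7 CPM, beside 93.4 CPM in insulin-high cells there. Cd24a was at 52.8 and 33.2 CPM in Csf1r cells, above the 26.2 and 18.2 CPM of Gcg cells, so the lowest levels of Cldn6 and Cd24a lie at this background. Cdh2 and Cldn10 were each at 52.8 and 16.6 CPM in Csf1r cells, Cdh2 from 1 and 2 UMIs. The Cdh2 levels of trunk and Neurog3-high cells lay between these values. Cldn10 was at 12.3 to 44.3 CPM from Neurog3-high to insulin-high cells, also near this background. The shares of 38.5% to 77.8% of cells with a Cdh1 UMI in the 6 other groups were above the 28.6% and 23.7% of Csf1r cells. Median depth in library 2 was 2879 UMIs in Neurog3-high cells, which had the lowest of these shares, and 2990 in Csf1r cells. With each cell thinned to 1500 UMIs, the Cdh1 shares of these groups in library 2 were 20.3% and 2.78%. Thinned to 1000 UMIs they were 17.8% and 13.2%, and the exact interval of the latter, 4.41% to 28.1%, covers the former. In library 1, 1 of 6 Csf1r cells (16.7%) had a Cdh1 UMI after thinning to 1500, beside 18.5% of Gcg cells. Gja1 was found more often, with 17 UMIs in 9 of 38 Csf1r cells of library 2 and up to 5 in a cell, or 141 CPM, close to the 153 CPM of trunk cells there. In library 1 it had 0 UMIs in 7 Csf1r cells. With groups of at least 5 cells, the edgeR log2 fold change of Gja1 between Csf1r and trunk cells was -0.11 ± 0.55 (SE, adjusted p = 0.953). In that fit Cldn3 (-5.35), Cldn6 (-2.87), Cldn7 (-3.84), Cdh1 (-2.74) and Cd24a (-3.69) passed. Like Gja1, Cldn4 (-2.91, edgeR adjusted p = 0.113), Cldn10 (-1.47, 0.377) and Cdh2 (-1.03, 0.608) did not pass.

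Shares of cells with a UMI depend on depth, so each cell was also thinned to 1500 UMIs. Cldn6 was detected in 45.7% and 44.2% of thinned trunk cells, in 52.4% and 60.2% of Neurog3-high cells and in 12.8% and 15.3% of Chgb-high cells. Without thinning these shares were 64.9% and 57.7%, 66.3% and 74.8%, and 27.4% and 27.0%. Cldn4 was found in 11.7% and 5.58% of thinned trunk cells, 9.52% and 11.7% of Neurog3-high cells and 21.8% and 29.7% of Chgb-high cells. Cd24a was found in 38.1% and 46.1% of thinned Neurog3-high cells and in 16.7% and 9.32% of Chgb-high cells. In Gcg cells it was found in 2 of 29 and 3 of 56 before thinning and in 0 of 27 and 0 of 52 after it, a draw with exact upper limits of 12.8% and 6.85%. The thinned share with a Cldn6 UMI in Csf1r cells of library 2 was 13.9%, close to the Chgb-high shares.

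A wider list of 121 genes of tight junctions, adherens junctions, desmosomes, gap junctions, epithelial surface partners and epithelial transcription factors had 113 with a row and 74 tested. Between trunk and Neurog3-high cells 8 of the 74 rose and 7 fell by edgeR, with a median log2 fold change of -0.18 against 0.01 for all genes, of which 5.1% rose and 3.54% fell, and DESeq2 called 8. By the fixed naming rule these included Cldn11, a claudin known from myelin, at 98.1 and 113 CPM in Neurog3-high cells against 20.2 and 17.0 CPM (edgeR log2 fold change 2.57 ± 0.39 SE, adjusted p = 7.53e-07). Amotl2, an angiomotin family scaffold of cell junctions (1.34 ± 0.19 SE), and the genes of the Kunitz-type protease inhibitors Spint1 (1.39 ± 0.24 SE) and Spint2 (0.84 ± 0.14 SE) rose too. Prkci, which encodes the polarity kinase atypical PKC iota (-2.05 ± 0.36 SE), and the trunk transcription factor gene Sox9 (-1.83 ± 0.19 SE) fell. Cldn11 thus rose at the step where Cldn3 and Cldn7 fell.

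Between Neurog3-high and Chgb-high cells 3 of the 74 rose and 14 fell by edgeR, with a median log2 fold change of -0.43 against -0.00 for all genes, of which 4.3% rose and 6.61% fell, and DESeq2 called 9. Those named by the rule were Amotl2 (-3.64 ± 0.24 SE), Spint2 (-1.03 ± 0.15 SE), the polarity scaffold gene Pard3 (-1.39 ± 0.22 SE), Sox9 (-1.23 ± 0.24 SE) and the P-cadherin gene Cdh3 (-2.37 ± 0.46 SE), which fell, and Ncam1, the neural cell adhesion molecule (2.28 ± 0.36 SE), which rose from 31.6 and 32.0 CPM to 178 and 157 CPM. In Gcg cells against Chgb-high cells 1 rose, Spint2 (0.80 ± 0.17 SE), and 0 fell, with 9 at an unadjusted p under 0.05 and 1 called by DESeq2, and 1 of 74 is close to the 1.41% called over all genes. In insulin-high cells against Chgb-high cells 2 rose, Pard3 (0.86 ± 0.24 SE) and Ezr, which encodes the membrane linker ezrin (1.38 ± 0.31 SE), and 0 fell, with 11 at an unadjusted p under 0.05 and 0 called by DESeq2, and 2 of 74 is close to the 2.85% called over all genes. Between insulin-high and Gcg cells Pard3 (1.26 ± 0.29 SE) and Gjd2, the gene of the beta-cell connexin 36 (1.82 ± 0.44 SE), were higher, and Spint2 (-0.78 ± 0.17 SE), Pard6b (-2.57 ± 0.75 SE) and the periplakin gene Ppl (-3.01 ± 0.88 SE) were lower by edgeR. DESeq2 called 1 of the 74 in that comparison, and edgeR called 3.11% of all genes. The split of trunk cells by low Neurog3 counts gave 0 of 73 wider-list genes tested in either direction by edgeR, with 4 at an unadjusted p under 0.05 and 0 called by DESeq2.

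The genes whose log2 CPM followed 8 of the adhesion genes most closely over the 10 sums were found among 10131 genes, as a description in which all sums share 2 libraries. For Cldn3 they were Notch2 (Pearson r = 0.98), Smtnl2 (0.96) and Hmga2 (0.95). For Cldn6 they were Rps4x, Cbx1 and Rpl36a. For Gja1 they were Gm12915, Yap1 and Trip6, for Cdh1 Atp1b1, Mki67 and Zfhx3, and for Cldn7 Ets1, Zfhx3 and Nr4a1. Cldn10 was followed by Dtymk, Hes1 and S100a10, Cldn4 by Alkbh1, Mkrn1 and Apbb1ip, and Cdh2 by Rc3h2, Rars2 and Itm2c. Between the adhesion genes themselves the highest r was 0.89, for Cldn6 and Cd24a, and Cldn3 and Cldn4 had an r of -0.32.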

How the data were processed

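Raw UMI counts per gene and cell were deposited by the authors, who used GRCm38 per the submitters' processing notes. The aligner, the counter, the annotation and the strand setting were not given in the sources used. RNA of sorted cells in inDrop droplets went through CEL-Seq linear amplification and paired-end sequencing, per the labels' protocols. All columns of cells entered the filters given next.

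A cell needed 1000 UMIs, 500 detected genes and no more than 20% mitochondrial UMIs (528 of 535 and 1081 of 1100 barcodes), and Scrublet in scanpy 1.11.5 removed 13 (2.46%) and 11 (1.02%) called doublets per library. UMIs were summed per library and marker group. Groups with at least 10 cells in each library gave 10 sums of 114560 to 646601 UMIs, which entered a single quasi-likelihood fit (edgeR 4.0.16 under R 4.3.3, TMM scaling, filterByExpr). Group and library were terms (6 coefficients, 4 residual degrees of freedom). Library is the block because both groups of a comparison come from the same libraries. All 9 adhesion genes with a row passed the filter. The 8 grouping genes were not tested. The split of trunk cells had its own fit of 12 sums. P-values were adjusted by Benjamini-Hochberg over all genes tested. Each SE was taken as the log2 fold change divided by the root of F. Intervals of fold changes are normal 95% intervals from it, slightly narrower than the F test implies. The spread of each gene is drawn by edgeR toward a shared one. A pseudocount of 1 CPM was added for single-library folds. CPM are UMIs per 1000000 UMIs of the sum. Intervals are exact (Poisson or Clopper-Pearson, 95%) and cover counting error only, and the limit for a count of 0 is 3 UMIs. Cells with at least 3 UMIs over 7 cycle genes were called cycling. The pipeline was tested on simulated data.

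Alternatives were DESeq2 1.42.0, other size factors, no filter on low counts, no replicate block, other marker thresholds, called doublets kept, and leaving out cells beyond 2 thresholds, cycling cells, cells under 2000 UMIs or a library. The adhesion genes, lists, groups and tests were chosen with earlier results of these data known. Of the wider list, at most 6 genes per comparison were named, by lowest adjusted p with the same sign in both libraries, and for each adhesion gene the 3 with the highest Pearson r of log2 (CPM + 1). Those for Cd24a are not reported here.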

Additional observations from a re-analysis of the deposited data

How the results depend on the processing

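Of 54 adhesion gene differences tested, 11 passed, all with the same sign in each library alone. Of these, 6 passed under every alternative with a test: Cldn3 and Cdh1 between Neurog3-high and trunk cells, Cldn6 and Cd24a between Chgb-high and Neurog3-high cells, and Cldn4 in Gcg and in insulin-high cells against Chgb-high cells. Of 121 alternative values of the 11 differences, 12 no longer passed and 0 reversed. Besides the losses given with the results, Cldn6 between Neurog3-high and trunk cells did not pass with no filter on low counts (adjusted p = 0.0637), no replicate block (0.123), lower marker thresholds (0.0517) or cells beyond 2 thresholds left out (0.0574). Of 473 alternative values of the other differences 8 passed: Cldn4 between Neurog3-high and trunk cells with marker UMIs scaled to 3000 per cell (0.0481) or cells beyond 2 thresholds left out (0.0156), Cldn6 in insulin-high against Chgb-high cells with doublets kept (0.0290) or cells beyond 2 thresholds left out (0.0241), and Cd24a in the latter comparison with no filter (0.0341), lower thresholds (0.0150), doublets kept (0.0332) or cells beyond 2 thresholds left out (0.0374). Lower thresholds moved the Cldn4 share of Neurog3-high cells in library 2 to 43.5%, an alternative chosen after seeing the data. Of 198 shares of cells with a UMI after thinning to 1000 UMIs, 139 lay inside the interval at 1500. DESeq2 gave no adjusted p for 2 of the 54 differences.

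Over all genes, DESeq2 called 292 where edgeR called 876 between Neurog3-high and trunk cells, 498 of 1106 between Chgb-high and Neurog3-high cells, 47 of 143 for Gcg and 108 of 289 for insulin-high against Chgb-high cells, 149 of 315 for insulin-high against Gcg cells, and 2 of 5 in the trunk split. With lower thresholds edgeR called 562, 845, 60, 159, 206 and 0 in that order. With no replicate block it called 644, 838, 69, 183, 232 and 3. Leaving out cells beyond 2 thresholds gave 144 for insulin-high against Chgb-high cells and 173 against Gcg cells. The trunk split gave 3 with doubled thresholds and 1 without cycling cells. The cause of these changes was not tested. A library alone leaves no residual degrees of freedom, so it gives a fold and no count of calls. Depth limits Gja1 and Cldn10 in Chgb-high, Gcg and insulin-high cells, where a sum held at most 5 UMIs of Gja1 and 10 of Cldn10.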

Other observations

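The cells that passed no marker threshold, 157 in library 1 and 310 in library 2, had 75.5 and 75.4 CPM of Cldn3, 106 and 101 CPM of Cldn4, 243 and 276 CPM of Cdh1, 106 and 93.7 CPM of Cdh2, and 439 and 244 CPM of Cldn6. Cldn6 was the least alike between the libraries among these 5. This remainder is a mixture that differed between libraries, with Sst at 906 and 3321 CPM, a mesenchyme list at 507 and 1765 CPM and an endothelium list at 144 and 438 CPM, and the part of these in the levels was not tested. The 6 and 7 cells past both the Neurog3 and the Chgb threshold had 893 and 646 CPM of Cldn6 and 357 and 231 CPM of Cldn4, beside 89.3 and 46.1 CPM of Cd24a. In library 1 the 20 Cldn6 UMIs came from 2 of the 6 cells, with 12 in 1 cell, and the 8 Cldn4 UMIs came from 2 cells, with 6 in 1 cell, while Cd24a had 2 UMIs in library 1 and 1 in library 2.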
